A study of Mus musculus with 96 samples.

Results

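The response of brown fat to a high-fat diet was set against the response of gonadal fat, gene by gene: the diet effect in gonadal fat was subtracted from the diet effect in brown fat. The arrays were chosen by their tissue and diet labels alone, which gave 24 of the 96 arrays of a study of 8 tissues. The groups, of 6 arrays each, were brown fat on the high-fat diet (HFD), brown fat on the standard breeding diet (SBD), gonadal fat on HFD and gonadal fat on SBD. All mice were of the inbred strain DBA/2J, 12 weeks old, fed for 6 weeks and fasted for 2 hours before dissection. The labels call the arrays of a group biological replicates. They give neither the sex of the mice nor the composition of the diets, and they do not say which arrays of the 2 tissues came from 1 mouse. Total RNA of whole dissected depots was amplified, labelled with biotin and hybridized to Illumina Mouse-6 BeadChips, so fewer cells of a type and less RNA per cell cannot be told apart in any value given here. The protocol places brown fat within a surrounding of white fat, and the pads around the gonads are lined by mesothelium.

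Brown fat burns fatty acids in mitochondria uncoupled by UCP1 and makes heat, whereas gonadal fat is a white depot that stores triglyceride in large unilocular adipocytes and secretes hormones such as leptin. Both make fatty acids from glucose, a pathway that falls when fat is eaten. In obesity white depots take up macrophages and remodel their matrix, and brown adipocytes gain lipid and may come to resemble white ones.

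Values are log2 intensities, normalized within each tissue alone. The diet effect is the log2 value on HFD minus that on SBD, and the tissue difference is the diet effect in brown fat minus that in gonadal fat. The value after ± is a standard error from limma with 6 arrays per group, and a gene was called at a Benjamini-Hochberg adjusted p under 0.05 over all 19327 genes or unnamed probes tested. The words rose and fell are kept for called diet effects. Levels of 1 probe may be read across the tissues only roughly, since the tissues were normalized separately.

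The arrays differed in brightness along the diets. The upper quartile of an array's intensities divided by their median was 1.34 to 1.45 on brown HFD replicates 3 to 6 and 1.96 to 2.05 on brown HFD replicates 1 and 2, against 1.70 to 1.85 on brown SBD arrays. In gonadal fat it was 1.55 to 1.72 on HFD replicates 3 to 6 and 2.51 to 2.65 on HFD replicates 1 and 2, against 1.98 to 2.35 on SBD arrays. The same HFD numbers were thus dim in both tissues, and the subtraction sets dim arrays against dim arrays. Most calls were lost without these arrays. Only HFD replicates 1 and 2 of each tissue then remain, so fewer arrays and brightness cannot be told apart in a lost call. Of 83 genes followed across settings, 64 lost a called tissue difference when HFD replicates 3 to 6 were left out of both tissues, 63 with arrays scaled to equal medians and 24 with brightness as a covariate. Among these 83, the called genes that were also called without the dim arrays are Car12, Npr3, Gstt1, Itgad, Ct55 and Pfkfb4. Those of the 83 that were also called with equal medians are Car12, Gstp3, Acly, Cidea, Cox8b, Itgad and Ct55. With the covariate the calls of Fdps, Sqle, Pmvk, Slc25a1, Elovl5, Elovl6, Tkt, Mt2, Cox8b, Agt, Nrg4, Sult1a1 and Inmt were lost. So were those of Phgdh, Ucp1, Itgax, Cd52, Ptx3, Hilpda, Plin2, Atf3, Egr2, Itih4 and Upk3b.

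The tissue labels were checked against markers. On SBD the median log2 level of Ucp1, the uncoupling protein, was 15.15 in brown fat and 9.66 in gonadal fat. Cidea, a lipid droplet protein abundant in brown adipocytes, had a median of 15.55 in brown SBD samples and 11.93 in gonadal SBD samples. Upk3b, a mesothelial marker, had a median of 6.38 in brown SBD samples, below the median of all probes, and 12.66 in gonadal SBD samples. Skeletal muscle transcripts were abundant in brown fat: the mean of 19 muscle markers was 9.96 to 12.85 on brown HFD arrays and 11.87 to 12.89 on brown SBD arrays. In gonadal fat that mean was 7.66 to 7.84 on HFD arrays and 8.21 to 11.22 on SBD arrays, with SBD replicate 1 the highest. The mean of 7 hepatocyte markers reached 12.28 on gonadal SBD replicate 5, where the median of the group was 7.86.

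The diet effect differed between the tissues for 392 of the 19327 genes or probes (2.03%), of which 306 had a gene symbol. It was higher in brown fat for 216 (1.12%) and lower in brown fat for 176 (0.911%). The ratio of the fold changes was at least 1.5 for 306 of them and at least 2 for 85. An unadjusted p under 0.05 for the tissue difference, counted below for some lists, was met by 2275 of the 19327. With arrays scaled to equal medians 729 met it, and without the dim arrays 816. The tissues' own diet effects were far more numerous: in brown fat 1230 genes rose (6.36%) and 1739 fell (9%), and in gonadal fat 1334 rose (6.9%) and 1502 fell (7.77%). The split within a tissue depended on scaling. With arrays scaled to equal medians, risers made up 18% of the calls in brown fat, against 41.4% here, and 15.2% in gonadal fat, against 47% here, as the median diet effect of all genes moved to -0.21 and -0.24. The median tissue difference was 0.01 under that scaling, but the tissue difference was then called for 12 genes, 11 of them among the 392.

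Most of the difference came from genes that moved in 1 tissue. Among the 216 positive differences 109 fell in gonadal fat alone, 79 rose in brown fat alone and 16 rose in brown fat and fell in gonadal fat. Another 7 fell in both, 4 rose in both and 1 was called in neither. Among the 176 negative differences 83 fell in brown fat alone, 71 rose in gonadal fat alone and 11 fell in brown fat and rose in gonadal fat. The remaining 8 rose in both, and 3 were called in neither. "Alone" here means only that the diet effect of the other tissue was not called. The fit that matches arrays of the 2 tissues by diet and replicate number called 860 genes.

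**Figure D1:**
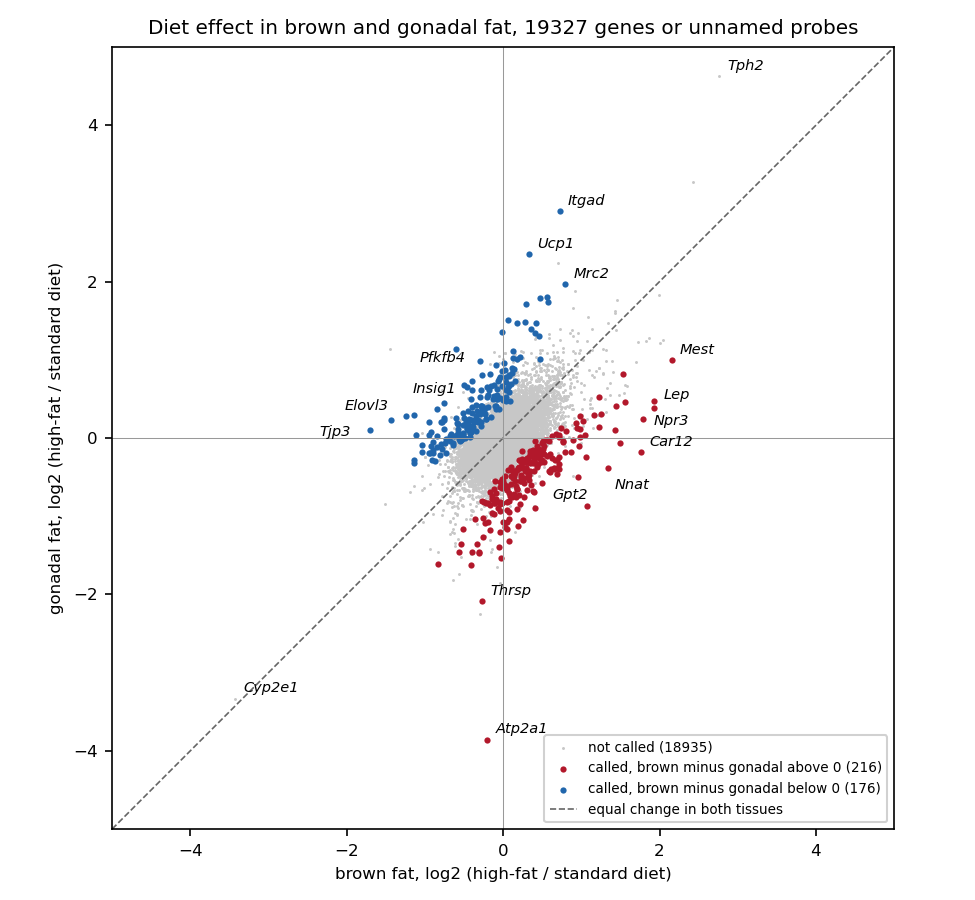
Diet effect of each gene or unnamed probe in brown fat (x axis) and gonadal fat (y axis), both as log2 of HFD over SBD, with the dashed line marking equal change. Called positive differences (216, red) lie below the line and called negative ones (176, blue) above it, while Cyp2e1, at -3.43 in brown fat and -3.33 in gonadal fat, lies close to it.

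Several genes rose in brown fat and had no called change in gonadal fat. Car12, a membrane carbonic anhydrase, read 8.46, 8.59 and 9.05 (lowest, median and highest) in brown HFD samples and 6.66, 6.90 and 7.12 in brown SBD samples. Gonadal fat gave 6.70, 7.0 and 7.53 on HFD and 6.79, 7.18 and 7.62 on SBD. The diets separated completely in brown fat and overlapped in gonadal fat. Car12 rose 3.40-fold in brown fat, and its tissue difference of 1.95 ± 0.20 was called by limma (adjusted p = 3.55e-06), also without the dim arrays (1.84 ± 0.28).

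Npr3, the natriuretic peptide clearance receptor, read 10.56, 10.77 and 11.05 in brown HFD samples, against 8.67, 9.09 and 9.14 in brown SBD samples. Gonadal fat already had more of it, with 12.42, 12.58 and 12.71 on HFD and 12.08, 12.25 and 12.71 on SBD. The diet groups did not overlap in brown fat and overlapped in gonadal fat. The tissue difference was 1.55 ± 0.15 (limma adjusted p = 2.47e-06) and was called without the dim arrays too (1.47 ± 0.23). Of 4 further Npr3 probes 3 were called in the same direction, and the dimmest, at a mean level of 7.55, gave -0.14 ± 0.15.

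Lep, which encodes leptin, the hormone of fat stores, read 13.23, 13.78 and 14.30 in brown HFD samples, against 10.79, 11.78 and 12.80 in brown SBD samples. In gonadal fat it read 15.26, 15.63 and 15.70 on HFD and 14.83, 15.10 and 15.34 on SBD. It rose 3.79-fold in brown fat, where the diets did not overlap, and the change of 0.48 ± 0.21 in gonadal fat was not called. The tissue difference was 1.45 ± 0.30 (limma adjusted p = 0.00842), and without the dim arrays it was 1.47 ± 0.47 and not called. Gonadal Lep lay within about a log2 unit of the brightest probe on the arrays (16.01), and how far that limits its diet effect was not tested.

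Mest, an imprinted gene that follows adipocyte enlargement, rose in both tissues and more in brown fat. It read 9.95, 10.28 and 10.64 in brown HFD samples, against 7.63, 8.13 and 8.45 in brown SBD samples. Gonadal fat gave 13.79, 14.25 and 14.36 on HFD, against 12.84, 13.20 and 13.58 on SBD. No diet groups overlapped in either tissue, and the rises were 4.46-fold in brown fat and 2.00-fold in gonadal fat (tissue difference 1.16 ± 0.21, limma adjusted p = 0.00223). Without the dim arrays the difference was 0.96 ± 0.30 and not called. A second, dim Mest probe with a mean level of 7.26 gave -0.12 ± 0.21.

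Other genes had called differences in the same direction. Nnat, an imprinted proteolipid gene, rose by 1.34 ± 0.19 in brown fat and had an effect of -0.38 ± 0.19 in gonadal fat, which was not called. Its median was 9.93 in brown HFD and 8.63 in brown SBD samples, against 13.23 in gonadal HFD and 13.69 in gonadal SBD samples. Sncg, a synuclein made by adipocytes, rose by 1.49 ± 0.15 in brown fat, and the effect in gonadal fat was -0.06 ± 0.15. Gonadal Sncg read up to 15.94 on HFD and 15.97 on SBD, next to the top of the scale (16.01), and what that does to its diet effect was not tested. Prr32, Apol6 and Ccnd1, the gene of the cell cycle regulator cyclin D1, rose in brown fat by 1.43, 1.06 and 1.23, and their effects in gonadal fat of 0.11, -0.24 and 0.14 were not called. Each of these 5 genes had a tissue difference called by limma, between 1.09 and 1.72, and brown HFD arrays all above brown SBD arrays.

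Among 20 tested genes of white adipocytes and adipokines, 7 had a called positive difference and none a called negative one, against 1.12% and 0.911% of all genes, and the list median was 0.29, against -0.01 for all genes. In brown fat 8 of the 20 rose (6.36% of all genes) and 1 fell (9%), and in gonadal fat 3 rose (6.9%) and 5 fell (7.77%). The 7 were Npr3, Nnat, Mest, Lep, Retn, Agt and Nrg4. The last 3 did not rise in brown fat. Retn, which encodes resistin, had a brown effect of -0.17 ± 0.12 and fell by 1.18 ± 0.12 in gonadal fat. Its probe was dim in brown fat, with medians of 7.04 on HFD and 7.11 on SBD. How far that limits its brown diet effect was not tested. Agt, the gene of angiotensinogen, lay below the median of all probes in brown fat and fell by 1.21 ± 0.18 in gonadal fat. Nrg4, a secreted ligand of ErbB receptors, fell by 0.37 ± 0.11 in gonadal fat, and its call was lost in 12 of 24 fits that left out 1 array (adjusted p up to 0.0665, without gonadal HFD replicate 6). Agt and Nrg4 were chosen for naming after their values were seen. With arrays scaled to equal medians limma called 0 of the 20, although 9 had a positive difference at an unadjusted p under 0.05, and without the dim arrays it called 1 of the 20, Npr3.

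Ccl4, a chemokine, rose in both tissues, by 1.55 ± 0.14 in brown fat and 0.46 ± 0.14 in gonadal fat (tissue difference 1.09 ± 0.20). A second probe of Ccl4 with a mean level of 7.03 gave 0.01 ± 0.23. S100b, a calcium-binding protein of glia and adipocytes, rose by 1.44 ± 0.16 in brown fat. In gonadal fat it lay below the median of all probes, and its effect of 0.41 ± 0.16 was not called (tissue difference 1.03 ± 0.23).

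Genes of cholesterol synthesis fell in brown fat and had almost no called change in gonadal fat. Of 19 tested, 11 fell in brown fat (9% of all genes) and 1 rose (6.36%), whereas in gonadal fat none fell (7.77%) and 1 rose (6.9%). The tissue difference was below 0 for 18 of the 19 and called for 7, all negative, against 0.911% of all genes, with a list median of -0.59. The list median was -0.54 in brown fat and 0.02 in gonadal fat, and with arrays scaled to equal medians it was -0.87 in brown fat and -0.38 in gonadal fat, a tissue difference of -0.52 with 0 called by limma and 6 negative at an unadjusted p under 0.05. Matching the arrays by diet and number gave 11 called in place of 7, the brightness covariate gave 4, and leaving out the dim arrays gave 0, with 5 negative at an unadjusted p under 0.05.

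Insig1, which holds the sterol sensor SCAP in the endoplasmic reticulum and is itself a target of SREBP, read 8.17, 8.40 and 8.61 in brown HFD samples, against 9.0, 9.41 and 9.67 in brown SBD samples. In gonadal fat it read 8.95, 9.10 and 9.38 on HFD and 8.60, 8.95 and 9.24 on SBD. All brown HFD arrays lay below all brown SBD arrays, and the gonadal groups overlapped. Its tissue difference was -1.15 ± 0.17 (limma adjusted p = 0.000387), without the dim arrays it was -0.91 ± 0.27 and not called, and a second Insig1 probe gave -1.22 ± 0.17.

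Cyp51, lanosterol demethylase, fell by 0.84 ± 0.11 in brown fat and had an effect of 0.02 ± 0.11 in gonadal fat. Tm7sf2, a sterol reductase, fell by 0.85 ± 0.10 in brown fat, with -0.12 ± 0.10 in gonadal fat. Nsdhl, a sterol dehydrogenase, fell by 0.57 ± 0.10 in brown fat, with 0.18 ± 0.10 in gonadal fat. In each of these 3 genes the brown HFD arrays lay below all brown SBD arrays and the gonadal groups overlapped. The other 3 called members were named after their values were seen. They are Fdps, farnesyl diphosphate synthase, with a tissue difference of -0.74 ± 0.16, Sqle, squalene epoxidase, with -0.70 ± 0.17 (not called without gonadal HFD replicate 3, adjusted p = 0.0549), and Pmvk, phosphomevalonate kinase, with -0.59 ± 0.14. The only member with a positive difference was Hmgcs1, the HMG-CoA synthase of the cytosol. It rose by 0.53 ± 0.11 in brown fat, and its tissue difference of 0.39 ± 0.16 was not called. Second probes of Fdps, Sqle and Tm7sf2, at mean levels of 7.25, 7.06 and 7.80, gave tissue differences of -0.13 ± 0.20, -0.30 ± 0.19 and -0.31 ± 0.12. None of these was called. A second Cyp51 probe gave -0.69 ± 0.16 and was called. Further Nsdhl probes gave -1.01 ± 0.21, which was called, and -0.84 ± 0.24, which was not.

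The promoters of the cholesterol genes were read from RefSeq (GRCm38.p6), from 250 bases before to 50 bases after the start of the gene. The classical sterol response element, TCACNCCAC on either strand, was found in 1 of 16 cholesterol genes with a promoter in the table and in 1.44% of 27025 genes. The CCAAT box, CCAAT on either strand and the core of the NF-Y motif that often accompanies SREBP sites, was found in all 16, against 41.1% of all genes. A gene with several starts was counted when any of its promoters held the motif; Pmvk has 2 promoters, 1 of them without a CCAAT box. The CCAAT box was also found in 9 of 15 genes of fatty acid synthesis. Of the 7 cholesterol genes with a called tissue difference, 5 had a promoter to read. All 5 held a CCAAT box and 0 held TCACNCCAC. The motifs do not overlap in their letters. A match is a description of the letters, and none of these data measure binding. The promoters of the 4 genes described above are shown for the CCAAT box, in capitals, which reads ATTGG where it lies on the opposite strand; none of the 4 holds TCACNCCAC.
Insig1 (chr5:28071162-28071461, plus strand): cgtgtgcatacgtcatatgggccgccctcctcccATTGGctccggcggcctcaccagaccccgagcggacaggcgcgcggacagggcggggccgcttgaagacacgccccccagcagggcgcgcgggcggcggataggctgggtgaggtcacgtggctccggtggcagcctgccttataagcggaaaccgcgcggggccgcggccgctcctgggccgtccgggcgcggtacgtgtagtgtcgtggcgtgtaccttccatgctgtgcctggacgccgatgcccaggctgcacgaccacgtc
Cyp51 (chr5:4104648-4104947, minus strand): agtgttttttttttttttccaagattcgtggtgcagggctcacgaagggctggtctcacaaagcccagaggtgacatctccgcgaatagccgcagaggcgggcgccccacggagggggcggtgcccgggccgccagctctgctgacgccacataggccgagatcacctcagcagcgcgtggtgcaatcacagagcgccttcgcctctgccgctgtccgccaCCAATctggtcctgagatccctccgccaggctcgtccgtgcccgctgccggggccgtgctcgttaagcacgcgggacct
Tm7sf2 (chr19:6067801-6068100, minus strand): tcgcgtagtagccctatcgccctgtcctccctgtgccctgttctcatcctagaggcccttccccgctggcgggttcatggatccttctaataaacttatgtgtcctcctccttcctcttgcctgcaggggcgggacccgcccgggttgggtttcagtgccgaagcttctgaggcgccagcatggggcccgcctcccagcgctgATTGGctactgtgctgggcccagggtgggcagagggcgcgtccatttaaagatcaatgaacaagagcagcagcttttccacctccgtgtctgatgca
Nsdhl (chrX:72918271-72918570, plus strand): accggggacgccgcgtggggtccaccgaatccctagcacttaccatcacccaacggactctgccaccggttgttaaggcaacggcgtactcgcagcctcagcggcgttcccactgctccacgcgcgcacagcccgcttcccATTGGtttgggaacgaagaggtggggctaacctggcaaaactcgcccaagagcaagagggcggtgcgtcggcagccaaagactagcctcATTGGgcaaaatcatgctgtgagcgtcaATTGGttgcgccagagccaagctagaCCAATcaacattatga
Insig1, Cyp51 and Tm7sf2 each hold 1 CCAAT box and Nsdhl holds 4.

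Other genes also fell in brown fat without a called change in gonadal fat. Elovl3, a fatty acid elongase of brown adipocytes, read 8.92, 9.42 and 10.09 in brown HFD samples, against 10.32, 10.84 and 11.35 in brown SBD samples. In gonadal fat it lay below the median of all probes, at medians of 6.86 on HFD and 6.67 on SBD. The brown diet groups did not overlap, and the fall was 2.71-fold. The tissue difference of -1.67 ± 0.25 was called (limma adjusted p = 0.000363), with the gonadal side resting on a dim probe, and without the dim arrays it was -1.08 ± 0.33 and not called.

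Gstp3, a glutathione transferase with near-identical relatives that the probe may share, read 7.03, 7.43 and 7.84 in brown HFD samples, against 8.35, 8.67 and 9.10 in brown SBD samples. In gonadal fat its medians were 7.39 on HFD and 7.03 on SBD, and the groups overlapped. The tissue difference was -1.52 ± 0.20 (limma adjusted p = 6.69e-05). Tjp3, a tight junction protein, fell by 1.70 ± 0.28 in brown fat, with 0.10 ± 0.28 in gonadal fat. Ppp1r3b, which targets protein phosphatase to glycogen, fell by 1.11 ± 0.16 in brown fat, with 0.04 ± 0.16 in gonadal fat. In these 3 genes the brown HFD arrays lay below all brown SBD arrays. Mt2, a metallothionein, fell by 0.76 ± 0.21 in brown fat with overlapping groups; its tissue difference of -1.20 ± 0.29 was not called without gonadal HFD replicate 6 (adjusted p = 0.0532).

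**Figure D2:**
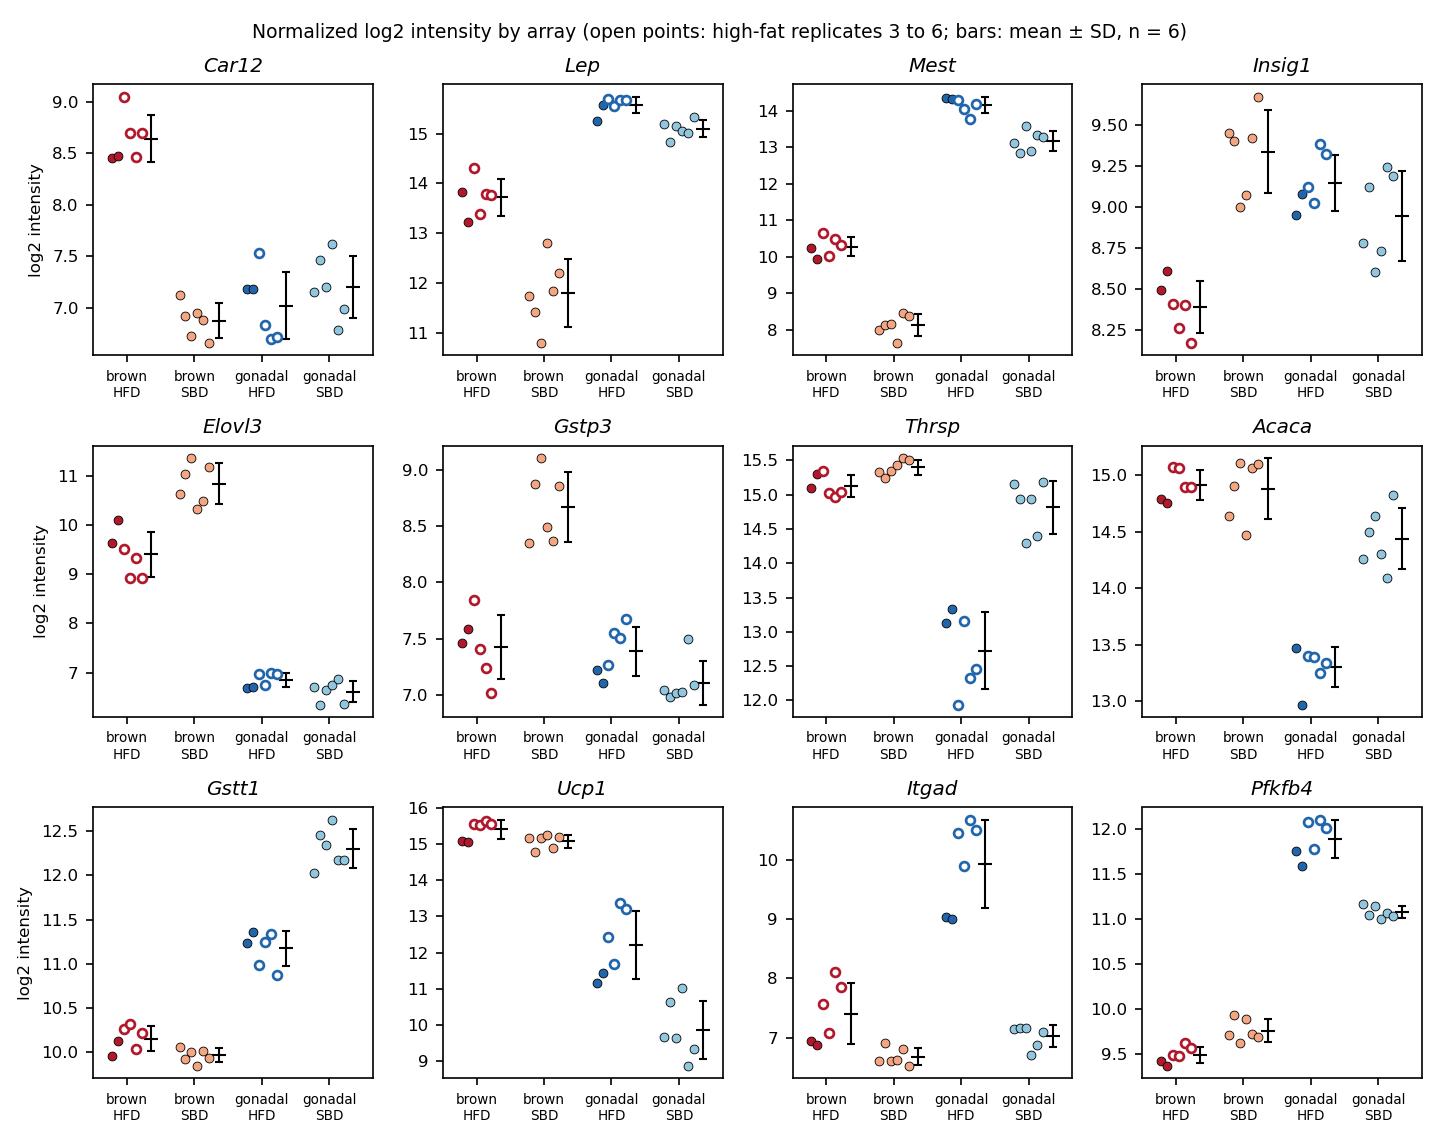
Normalized log2 intensity of 12 genes (y axes, scaled per gene) on each array of the 4 groups, left to right brown HFD, brown SBD, gonadal HFD and gonadal SBD. Open points are the dim HFD replicates 3 to 6, and the bars give mean ± SD over 6 arrays. Car12, Lep, Insig1, Elovl3 and Gstp3 separate by diet in brown fat alone, Thrsp, Acaca, Gstt1, Ucp1 and Itgad in gonadal fat alone, and Mest and Pfkfb4 in both, Pfkfb4 in opposite directions.

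Genes of fatty acid synthesis had called differences in both directions. Of 18 tested genes 5 had a called positive difference (1.12% of all genes) and 3 a called negative one (0.911%), with a list median of 0.04. None rose in either tissue, 8 fell in brown fat (9% of all genes) and 9 fell in gonadal fat (7.77%). The 5 positive ones fell in gonadal fat and were Thrsp, Acaca, Acly, Elovl6 and Tkt, of which Elovl6 alone fell in brown fat too. The 3 negative ones, with the lower diet effect in brown fat, were Slc25a1, Scd2 and Elovl5. Of these Elovl6, Tkt, Scd2 and Elovl5 were named after their values were seen. With the brightness covariate 3 of the 5 and 1 of the 3 were called, and without the dim arrays none of either by limma, with 6 positive and 2 negative members at an unadjusted p under 0.05.

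Thrsp, a nuclear protein that promotes lipogenesis, read 14.96, 15.07 and 15.34 in brown HFD samples, against 15.25, 15.39 and 15.53 in brown SBD samples. In gonadal fat it read 11.94, 12.79 and 13.33 on HFD, against 14.29, 14.93 and 15.19 on SBD. The brown groups overlapped and the gonadal groups were far apart. Thrsp had a brown effect of -0.27 ± 0.19 and fell 4.26-fold in gonadal fat, with a tissue difference of 1.82 ± 0.26 (limma adjusted p = 0.0003). Without the dim arrays the difference was 1.36 ± 0.24 and not called. A second Thrsp probe, at a mean level of 7.02 against 14.52, gave -0.33 ± 0.16.

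Acaca, acetyl-CoA carboxylase, which makes malonyl-CoA, read 14.75, 14.89 and 15.07 in brown HFD samples, against 14.47, 14.98 and 15.11 in brown SBD samples. Gonadal fat gave 12.97, 13.36 and 13.47 on HFD, against 14.09, 14.40 and 14.82 on SBD. The brown groups overlapped and the gonadal groups did not, with a brown effect of 0.03 ± 0.12 and a 2.20-fold fall in gonadal fat (tissue difference 1.16 ± 0.17, limma adjusted p = 0.000382). Without the dim arrays it was 1.09 ± 0.26 and not called. A second, dim Acaca probe with a mean level of 7.95 gave 0.01 ± 0.20. Acly, ATP citrate lyase, which makes cytosolic acetyl-CoA, had an effect of -0.19 ± 0.11 in brown fat and fell by 1.08 ± 0.11 in gonadal fat.

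Elovl6, a fatty acid elongase, fell in both tissues, by 0.57 ± 0.14 in brown fat and 1.45 ± 0.14 in gonadal fat. Tkt, transketolase of the pentose phosphate pathway, had an effect of 0.27 ± 0.12 in brown fat and fell by 0.51 ± 0.12 in gonadal fat. A second Elovl6 probe, at a mean level of 7.53, gave a tissue difference of 0.09 ± 0.21 and was not called. A further Tkt probe at a mean level of 9.84 gave 0.82 ± 0.21 and was called. Another Tkt probe, at 6.90, gave -0.17 ± 0.12 and was not called. On the other side, Slc25a1, the mitochondrial citrate carrier, fell by 1.14 ± 0.12 in brown fat, with -0.32 ± 0.12 in gonadal fat. Scd2, a stearoyl-CoA desaturase, fell by 0.92 ± 0.14 in brown fat, with -0.10 ± 0.14 in gonadal fat. Elovl5, an elongase of polyunsaturated fatty acids, fell by 0.54 ± 0.08 in brown fat, with -0.02 ± 0.08 in gonadal fat. Fasn, fatty acid synthase, and Scd1, the main desaturase of fat, had tissue differences of 0.20 (95% interval -0.32 to 0.72) and 0.03 (-0.36 to 0.41) and were called in neither tissue.

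In brown fat the means of Thrsp, Acly, Tkt and Scd1 over the 12 arrays, and those of Cidea, Cox8b and Ucp1, lay 0.28 to 0.79 log2 units under the brightest value on the arrays, 16.02. The mean of Pdk4 lay 0.99 under it. Within 1 log2 unit of that value lay 0.595% of the tested genes. What the top of the scale does to a diet effect in brown fat was not tested.

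**Figure D3:**
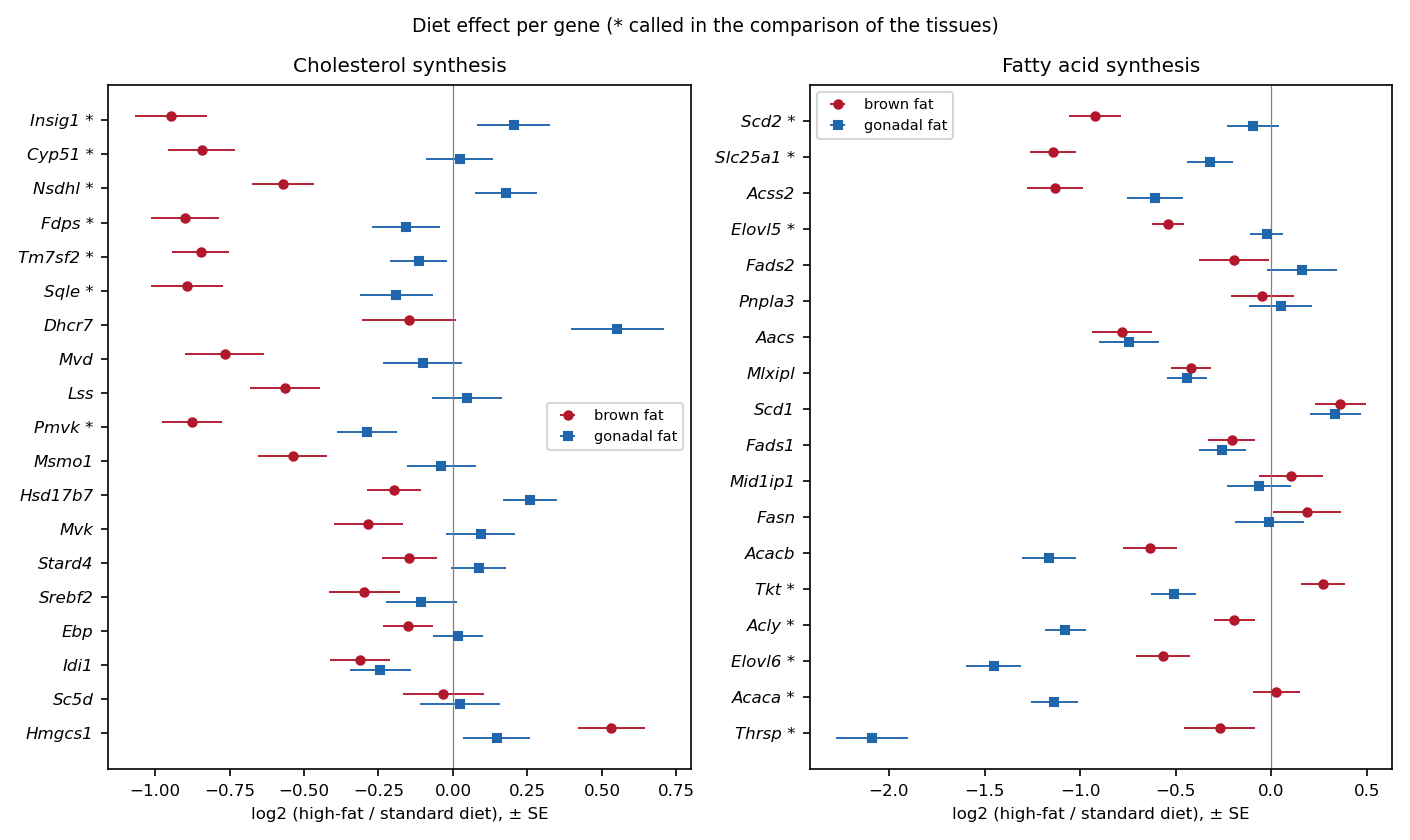
Diet effect (x axes, log2 of HFD over SBD ± SE) of the 19 tested genes of cholesterol synthesis and the 18 of fatty acid synthesis in brown fat (circles) and gonadal fat (squares), ordered by the tissue difference, with a star on called genes. The brown values of Insig1, Cyp51 and Fdps lie left of the gonadal values, whereas those of Thrsp, Acaca, Elovl6 and Acly lie right of them.

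Of 19 tested brown adipocyte genes 2 had a called positive difference (1.12% of all genes) and 2 a called negative one (0.911%), and the list median was -0.17. Ucp1 read 15.04, 15.54 and 15.63 in brown HFD samples, against 14.78, 15.15 and 15.25 in brown SBD samples. Gonadal fat gave 11.16, 12.06 and 13.37 on HFD, against 8.87, 9.66 and 11.01 on SBD. The brown effect of 0.33 ± 0.33 was not called, and each gonadal HFD array lay above all gonadal SBD arrays, a 5.09-fold rise. Its tissue difference was -2.01 ± 0.47 (limma adjusted p = 0.0176). It was not called with the brightness covariate or with equal medians, nor without the dim arrays, where it was -1.46 ± 0.55. Of the list, 1 positive and 1 negative were called with the covariate, and limma called 0 without the dim arrays, with 2 positive and 2 negative at an unadjusted p under 0.05. Cidea and Cox8b, a subunit of cytochrome c oxidase found in brown fat and muscle, had a called fall in gonadal fat. In brown fat the effects were 0.05 ± 0.14 for Cidea and 0.00 ± 0.20 for Cox8b. Cidea read 10.22, 10.75 and 11.25 in gonadal HFD samples, against 11.74, 11.93 and 12.11 in gonadal SBD samples, groups that did not overlap, and fell by 1.16 ± 0.14. Cox8b fell by 1.07 ± 0.20 with overlapping groups, and its tissue difference of 1.07 ± 0.28 was lost in 17 of 24 fits that left out 1 array (adjusted p up to 0.0753, without brown HFD replicate 6). Elovl3, above, was the other negative member.

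Gstt1, a theta-class glutathione transferase, read 9.95, 10.17 and 10.32 in brown HFD samples, against 9.84, 9.96 and 10.06 in brown SBD samples. Gonadal fat gave 10.87, 11.24 and 11.36 on HFD, against 12.03, 12.26 and 12.63 on SBD. The brown groups overlapped and the gonadal groups did not. Gstt1 fell 2.18-fold in gonadal fat, and its tissue difference of 1.32 ± 0.14 was called by limma (adjusted p = 3.55e-06), also without the dim arrays (1.07 ± 0.18).

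Of 24 tested glutathione and xenobiotic genes 3 had a called positive difference (1.12% of all genes) and none a negative one, with a list median of 0.30. Matching the arrays by diet and number gave 6 positive and 2 negative calls, leaving out the dim arrays gave 1 positive, and equal medians gave 0 by limma, with 6 positive at an unadjusted p under 0.05. The other members called were Gsta4, which detoxifies lipid aldehydes, with a fall of 0.95 ± 0.12 in gonadal fat, and Sult1a1, a phenol sulfotransferase, with a fall of 0.39 ± 0.12 there, whose call was lost in 11 of 24 fits that left out 1 array (adjusted p up to 0.0677, without brown HFD replicate 6). Asns, asparagine synthetase, had an effect of -0.11 ± 0.10 in brown fat and fell by 0.82 ± 0.10 in gonadal fat. Ldhb, a lactate dehydrogenase subunit, had an effect of -0.01 ± 0.09 in brown fat and fell by 0.62 ± 0.09 in gonadal fat. Second, dimmer probes of Sult1a1, Asns and Ldhb gave tissue differences of 0.51 ± 0.16, 0.44 ± 0.15 and 0.14 ± 0.30 and were not called. Phgdh, the first enzyme of serine synthesis, rose by 0.31 ± 0.11 in brown fat, with -0.30 ± 0.11 in gonadal fat, which was not called. Its tissue difference of 0.61 ± 0.15 was lost in 5 of the 24 fits (adjusted p up to 0.0553, without gonadal HFD replicate 3).

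Ripk4, a protein kinase, had an effect of -0.06 ± 0.17 in brown fat and fell by 1.39 ± 0.17 in gonadal fat. Eri2, an exonuclease gene, had an effect of -0.02 ± 0.17 in brown fat and fell by 1.53 ± 0.17 in gonadal fat. Of 2 further Eri2 probes 1 was called the same way and the other, at a mean level of 7.28, gave -0.17 ± 0.14. Inmt, an N-methyltransferase, fell by 1.31 ± 0.25 in gonadal fat, and its tissue difference of 1.39 ± 0.35 was lost in 14 of 24 fits that left out 1 array, at an adjusted p of up to 0.0718 without gonadal HFD replicate 6.

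Itgad, the alpha D integrin chain of macrophages, read 6.88, 7.32 and 8.11 in brown HFD samples, against 6.52, 6.61 and 6.91 in brown SBD samples. Its gonadal values were 9.01, 10.18 and 10.67 on HFD, against 6.71, 7.12 and 7.17 on SBD. The lowest brown HFD value lay just under the highest brown SBD value, and the gonadal groups were far apart. Itgad rose 1.65-fold in brown fat and 7.48-fold in gonadal fat. The tissue difference of -2.18 ± 0.35 was called by limma (adjusted p = 0.000722), and it was also called without the dim arrays (-1.99 ± 0.21).

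Most macrophage genes rose in each tissue: of 30 tested, 19 rose in brown fat (6.36% of all genes) and 17 in gonadal fat (6.9%), and none fell in either. Its median was 0.56 in brown fat and 0.63 in gonadal fat. Only 3 had a called tissue difference, all negative, against 0.911% of all genes, and the list median was 0.08. Beside Itgad they were Itgax, the CD11c integrin chain, which rose by 0.46 ± 0.15 in brown fat and 1.31 ± 0.15 in gonadal fat, and Cd52, a leukocyte surface glycoprotein, which had an effect of -0.40 ± 0.17 in brown fat and rose by 0.62 ± 0.17 in gonadal fat. Both lay below the median of all probes in brown fat, and Itgax was not called in 3 of 24 fits that left out 1 array (adjusted p up to 0.0543, without brown HFD replicate 4). Trem2 and Mmp12, markers of lipid-laden macrophages named after their values were seen, rose by close estimates, with intervals that allow a difference either way. They do not stand for the list, whose tissue differences ran from -2.18 to 0.89. Trem2, a lipid receptor, rose by 1.44 ± 0.24 in brown fat and 1.38 ± 0.24 in gonadal fat, with a 95% interval of -0.64 to 0.76 for the difference. Mmp12, macrophage elastase, rose by 1.99 ± 0.30 in brown fat and 1.83 ± 0.30 in gonadal fat, with an interval of -0.71 to 1.04.

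Mrc2, an endocytic collagen receptor, rose in both tissues and more in gonadal fat. It read 9.44, 9.87 and 10.14 in brown HFD samples, against 8.67, 9.06 and 9.33 in brown SBD samples, and 12.70, 12.90 and 13.22 in gonadal HFD samples, against 10.63, 10.95 and 11.23 in gonadal SBD samples. No diet groups overlapped in either tissue. The rises were 1.73-fold in brown fat and 3.91-fold in gonadal fat (tissue difference -1.18 ± 0.18, limma adjusted p = 0.00045). Further Mrc2 probes, at mean levels of 7.45 and 7.38, gave -0.45 ± 0.14 and -0.40 ± 0.14 and were not called. Of 31 tested extracellular matrix genes 16 rose in brown fat (6.36% of all genes) and 15 in gonadal fat (6.9%), and limma called no tissue difference, with a list median of -0.11 and 2 positive and 3 negative at an unadjusted p under 0.05. Col1a1, a chain of type I collagen, had an effect of 0.36 ± 0.20 in brown fat and rose by 1.08 ± 0.20 in gonadal fat, and its difference of -0.72 ± 0.28 was not called. Of 9 tested MHC class II genes 5 rose in brown fat (6.36% of all genes) and 6 in gonadal fat (6.9%). For these limma called none in the tissue difference, with 1 at an unadjusted p under 0.05. Of all 19327 genes or probes 2275 met that unadjusted threshold.

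Ptx3, a soluble pattern recognition protein, rose by 0.57 ± 0.19 in brown fat and 1.80 ± 0.19 in gonadal fat. Orm2, an acute-phase orosomucoid with close paralogs that the probe may share, had an effect of 0.18 ± 0.19 in brown fat and rose by 1.47 ± 0.19 in gonadal fat. Nup210, a nuclear pore glycoprotein, rose by 0.57 ± 0.15 in brown fat and 1.74 ± 0.15 in gonadal fat. Each had a called tissue difference, between -1.29 and -1.17, and gonadal HFD arrays above all gonadal SBD arrays. Slc5a7, a choline transporter, rose by 0.48 ± 0.14 in brown fat and 1.79 ± 0.14 in gonadal fat. Ct55, a gene named for cancer and testis, had an effect of 0.30 ± 0.11 in brown fat and rose by 1.71 ± 0.11 in gonadal fat, and was called without the dim arrays too (-1.37 ± 0.17). Both lay below the median of all probes in brown fat.

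Tph2, a tryptophan hydroxylase of serotonin synthesis, rose in both tissues, 6.79-fold in brown fat and 24.6-fold in gonadal fat. It read 7.55, 9.44 and 10.25 in brown HFD samples, against 6.13, 6.40 and 6.67 in brown SBD samples, and 11.98, 12.87 and 14.02 in gonadal HFD samples, against 7.82, 8.34 and 8.71 in gonadal SBD samples. In both tissues HFD replicates 1 and 2, the bright arrays, had the lowest HFD values. The tissue difference of -1.86 ± 0.54 was not called in limma (adjusted p = 0.0736). Without the dim arrays it was -2.20 ± 0.34 (adjusted p = 0.0178), and with arrays matched by diet and number the adjusted p was 0.000981. Over the other settings it went up to 0.325, with a smaller background offset.

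Plin2, a lipid droplet coat protein, had an effect of -0.02 ± 0.12 in brown fat and rose by 0.67 ± 0.12 in gonadal fat. Hilpda, a small protein that inhibits adipose triglyceride lipase, had an effect of 0.41 ± 0.17 in brown fat and rose by 1.35 ± 0.17 in gonadal fat. Atf3, a stress transcription factor, had an effect of 0.36 ± 0.15 in brown fat and rose by 1.39 ± 0.15 in gonadal fat, and Egr2, a zinc finger factor, had an effect of 0.12 ± 0.16 in brown fat and rose by 1.11 ± 0.16 in gonadal fat. All 4 had overlapping brown groups and gonadal HFD arrays above all gonadal SBD arrays. Plin2 and Hilpda lost their call in 9 and 14 of the 24 fits that left out 1 array, with adjusted p up to 0.0607 without brown HFD replicate 6 and 0.0712 without gonadal SBD replicate 4.

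A smaller set of 27 genes had called effects in opposite directions, 16 with a rise in brown fat and a fall in gonadal fat and 11 the reverse. Pfkfb4, which sets the level of a potent activator of glycolysis, read 9.37, 9.49 and 9.62 in brown HFD samples, against 9.62, 9.71 and 9.94 in brown SBD samples. Its gonadal values were 11.59, 11.89 and 12.10 on HFD, against 11, 11.06 and 11.17 on SBD. It fell 1.20-fold in brown fat and rose 1.75-fold in gonadal fat, with diet groups that did not overlap, although the nearest brown arrays both read 9.62. Its tissue difference was -1.07 ± 0.12 (limma adjusted p = 5.90e-06) and was called without the dim arrays too (-0.97 ± 0.14).

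Cebpb, a transcription factor of early adipogenesis and inflammation, fell by 0.42 ± 0.10 in brown fat and rose by 0.49 ± 0.10 in gonadal fat. Noct, a rhythmic phosphatase gene, fell by 0.46 ± 0.11 in brown fat and rose by 0.65 ± 0.11 in gonadal fat. Chil1, a chitinase-like protein, fell by 0.40 ± 0.12 in brown fat and rose by 0.73 ± 0.12 in gonadal fat. In all 3 the brown groups overlapped and the gonadal groups were apart. In the other direction Gpt2, mitochondrial alanine aminotransferase, rose by 0.96 ± 0.13 in brown fat and fell by 0.49 ± 0.13 in gonadal fat (tissue difference 1.45 ± 0.18, limma adjusted p = 2.64e-05). Sucnr1, the succinate receptor, rose by 0.60 ± 0.11 in brown fat and fell by 0.44 ± 0.11 in gonadal fat. Eepd1, a membrane protein under liver X receptor control, rose by 0.39 ± 0.12 in brown fat and fell by 0.69 ± 0.12 in gonadal fat. Fam229b rose by 0.50 ± 0.11 in brown fat and fell by 0.58 ± 0.11 in gonadal fat. These 8 genes kept both signs under each scaling tried and with either set of HFD arrays left out.

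Some of the largest diet effects had no called tissue difference. Cyp2e1, a cytochrome P450 that oxidizes ethanol and fatty acids, read 8.97, 9.50 and 10.09 in brown HFD samples, against 12.14, 12.85 and 13.83 in brown SBD samples. Its gonadal values were 11.76, 12.17 and 12.59 on HFD, against 14.96, 15.57 and 15.94 on SBD. It fell 10.8-fold in brown fat and 10.1-fold in gonadal fat, with diet groups far apart in both. The tissue difference was -0.10, with a 95% interval of -0.84 to 0.65. A second Cyp2e1 probe, at a mean level of 11.41, gave 0.61 ± 0.24, opposite in sign and not called. The gonadal SBD values of the first probe reached close to the top of the scale (16.01). What that does to its gonadal diet effect was not tested. Adipoq, the gene of adiponectin, was called in neither tissue, with a difference of -0.05 and an interval of -0.34 to 0.24. Pdk4, a kinase that inhibits pyruvate dehydrogenase, had a difference of -0.45 and an interval of -0.95 to 0.05.

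Of 36 tested oxidative phosphorylation genes limma called none in the tissue difference (2.03% of all genes). At an unadjusted p under 0.05, 10 were positive and none negative, against 2275 of all 19327 in either direction. A positive sign was seen for 30, and the list median was 0.24. Matching the arrays by diet and number gave 3 positive calls, Atp5c1, Ndufv2 and Sdhb, named after their values were seen. In brown fat 5 of the 36 fell (9% of all genes) and in gonadal fat 14 (7.77%), and none rose in either. Their medians were -0.01 in brown fat and -0.27 in gonadal fat. With arrays scaled to equal medians these were -0.29 and -0.64.

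Atp2a1, the calcium pump of fast muscle fibres, had the largest tissue difference of all called genes, 3.66 ± 0.70 (limma adjusted p = 0.00441). It read 12.72, 15.02 and 15.27 in brown HFD samples, against 14.47, 14.85 and 15.18 in brown SBD samples. Its gonadal values were 6.70, 6.96 and 7.41 on HFD, against 9.73, 10.45 and 14.13 on SBD. The brown groups overlapped, and all gonadal HFD arrays lay below the gonadal SBD arrays, of which replicate 1 was far above the rest. Without gonadal SBD replicate 1 the difference was 2.98, and it was still called. Of 19 tested muscle markers Atp2a1 alone had a called difference, and 18 of the 19 had a positive sign. The list median was 0.96, or 0.38 without gonadal SBD replicate 1 and 1.42 without brown HFD replicate 3. In brown fat the median diet effect of the list was -0.20, or 0.27 without brown HFD replicate 3. The muscle markers thus moved with this gene in gonadal fat, and their part in its difference was not tested.

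Itih4, an acute-phase protein of the liver, read 7.79, 9.28 and 9.47 in brown HFD samples, against 7.37, 7.94 and 8.29 in brown SBD samples. Its gonadal values were 8.27, 8.59 and 8.99 on HFD, against 8.93, 9.22 and 11.04 on SBD. The diet groups overlapped in both tissues. The highest gonadal SBD value was that of replicate 5, on which the hepatocyte markers Apoa1 and Apoa2 read 12.87 and 14.18. Its tissue difference was 1.95 ± 0.41 (limma adjusted p = 0.00842), and without that replicate it was 1.63 and still called. A second Itih4 probe gave 0.66 ± 0.30 and was not called.

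The number of 392 calls depends on keeping HFD replicates 3 to 6, and each call kept its direction without them. Leaving them out leaves 2 HFD arrays per tissue, so the loss of arrays and the loss of dim arrays cannot be told apart. With HFD replicates 3 to 6 left out of both tissues, 11 genes were called, 10 of them among the 392, and 816 had an unadjusted p under 0.05. All 392 kept their sign there, with a median size 0.832 times that on all arrays. With HFD replicates 1 and 2 left out instead, a choice made after the data were seen, 588 genes were called, 345 of them among the 392, and again all 392 kept their sign. These sets share the SBD arrays and the genes were chosen on all arrays, so the shared sign is not independent evidence. With brightness as a covariate in each tissue 189 genes were called.

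**Figure D4:**
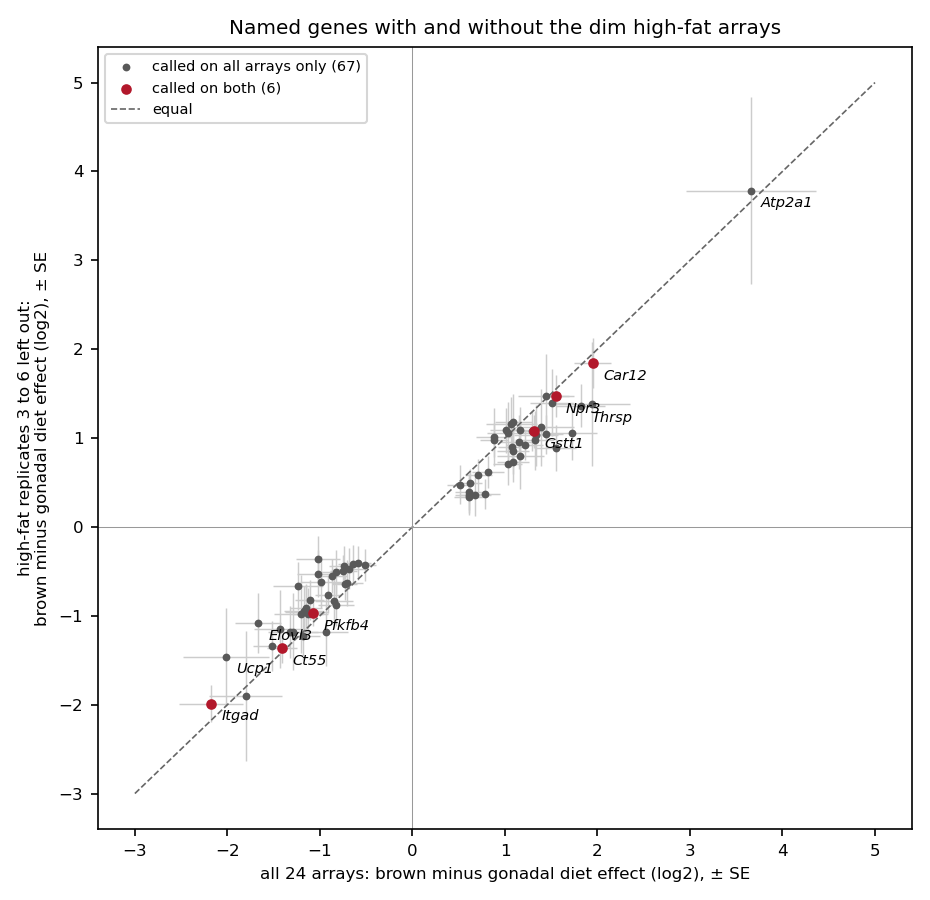
Tissue difference (log2, ± SE) of 73 genes that met the naming rule or are described above and were called on all 24 arrays (x axis) and with the dim HFD replicates 3 to 6 of both tissues left out (y axis). All points keep their sign, and 6 (red: Car12, Npr3, Gstt1, Itgad, Ct55 and Pfkfb4) were called in both fits.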

How the data were processed

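Messenger RNA was measured on 24 arrays (brown and gonadal fat, 2 diets, 6 arrays per group). Per the labels, total RNA was extracted with TRIzol, amplified and hybridized to BeadChips. The authors deposited 1 intensity per probe and array for 46632 probes, not normalized and, per the file headers, without detection p-values; the sources used here do not give the scanner processing. Deposited log2 values of the authors matched a quantile normalization of all 96 arrays without background correction to within 0.00191.

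Intensities were background corrected with limma's normexp (offset 50), log2 transformed and quantile normalized within the 12 arrays of a tissue. Symbols came from the platform table, updated by Entrez number (29976 probes with 1 symbol, 10 with several, 16646 with none, 29921 matched). The brightest probe of a gene on average was kept, and a gene or unnamed probe was tested if it lay above the median of all probes in at least 1 tissue, which left 19327, of which 12330 had a symbol. limma (3.58.1, R 4.3.3) fitted 4 group means on 24 arrays, moderated two-sided tests were made of the tissue difference and of each diet effect, and p-values were adjusted by Benjamini-Hochberg. On simulated data 90% of 200 genes with a log2 tissue difference of 1 were recovered among 19327, with 2.7% of calls false. The simulated noise was independent between arrays, with no dim arrays, no normalization step and no link of same-numbered arrays. It therefore checks the fit only and does not measure the false share among the calls made here. The number of arrays limits the precision.

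The labels do not say that a number marks 1 mouse in both tissues. After removal of group means, all 12 same-numbered pairs of arrays correlated above 0.1 (0.158 to 0.693). Of the 12, 9 arrays matched their own number best. The best differently numbered array also correlated above 0.1 in each case (0.111 to 0.529), so this threshold does not mark a shared mouse. The highest same-numbered values, 0.609 and 0.693, were those of HFD replicates 1 and 2, bright in both tissues. What brightness adds to them was not tested. The fit with a block per diet and number is given, as an alternative, where it changes the call of a described gene. It is also given where it moves a list's count by over 1.5 times. No 2 arrays were copies (highest correlation 0.99546).

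The comparison, the gene lists (20, and 10 of cell markers) and the genes always named were chosen with earlier results of these data known. Named genes are the 15 largest called differences in each direction, up to 4 called members per list (or the 2 with the smallest p), up to 8 genes with opposite effects, and Ucp1, Lep, Adipoq, Cyp2e1, Tph2, Fasn, Scd1, Pdk4, Mest and Insig1; not every gene so admitted is printed. Lists were counted, not tested. Alternatives were median scaling, joint normalization, the authors' deposited log2 values, a floor of 16 without background correction, an offset of 16, other probe filters, all 96 arrays, array weights, blocks, brightness terms, a fold of at least 1.5, and arrays left out.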

Additional observations from a re-analysis of the deposited data

Results flagged for a closer look

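The diet effect differed between brown and gonadal fat for 392 genes by a test of the difference itself, as described above.

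In 20 of 332 combinations of a named gene and a group of 6 arrays, 1 array stood apart from the other 5. Chance alone flags about 1 in 20 groups. On gonadal SBD replicate 5 the hepatocyte genes Apoa1 and Apoa2 read 12.87 and 14.18, Itih4 read 11.04, Gstp3 read 7.50 and Hmgcs1 read 15.15, the last below the other arrays. On gonadal SBD replicate 1 Atp2a1 read 14.13, and on brown HFD replicate 3 it read 12.72, below the rest. On brown SBD replicate 2 Apoa2 read 9.97, Col1a1 12.19, Trem2 8.59 and S100a8 10.28, each above the other arrays of the group. On brown HFD replicate 2 Orm2 read 9.41 and Slc5a7 6.84, below the rest, and Hmgcs1 15.51, above it. Single arrays also stood apart for Lep (15.26, gonadal HFD replicate 1), Trem2 (8.10, brown HFD replicate 1), Cox8b (12.83, gonadal SBD replicate 3), Slc25a1 (12.16, gonadal SBD replicate 6), Tjp3 (8.89, brown SBD replicate 4) and Elovl6 (14.71, brown SBD replicate 6). The called differences of Lep, Slc25a1, Gstp3, Tjp3, Elovl6, Cox8b, Orm2, Slc5a7, Atp2a1 and Itih4 were called without that array too.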

How the results depend on the processing

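No called tissue difference among 83 genes followed across the settings changed sign under any of them. Those of Scd1, Cyp2e1, Adipoq, Apoa1, Trem2 and Mmp12, which were not called, did under at least 1 setting. The count of 392 calls became 12 with median scaling, 860 and 1058 with a fixed and a random replicate block, 189 with a brightness covariate, 12 with a term for HFD replicates 3 to 6 and 11 with those arrays left out; leaving out 1 array gave 302 to 456. Of the 83 genes, the fixed block changed the call of Tph2 and S100a8 alone, which were gained. The diet effect in brown fat, 2969 calls, became 518 with a fold of at least 1.5, 211 with median scaling, 5131 with array weights, 1266 with the brightness covariate, 203 with the term for dim arrays, 94 without them and 6333 without HFD replicates 1 and 2. Leaving out 1 array gave 1953, without brown HFD replicate 6, to 3833, and 1976 without brown HFD replicate 5. The diet effect in gonadal fat, 2836 calls, became 702, 669, 1649, 322, 183 and 5993 under the same settings without array weights, and 1920 to 3568 with 1 array left out. The cause of these changes was not tested. The missing detection p-values leave the distance of dim probes from background unknown.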

Other observations

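Several gene groups had members that moved with diet in both tissues and few called tissue differences. Of 26 tested cytokine, chemokine and acute-phase genes 14 rose (6.36% of all genes) and 1 fell (9%) in brown fat, and 15 rose in gonadal fat (6.9%), with 1 called difference (2.03%), that of Ccl4. With arrays matched by diet and number 2 negative ones were added, S100a8 and Ubd. Of 23 cell cycle genes 10 rose in brown fat (6.36%) and 11 in gonadal fat (6.9%), with 1 called difference, that of Ccnd1. Of 21 integrated stress response genes 5 rose in brown fat (6.36%), and 7 rose (6.9%) and 1 fell (7.77%) in gonadal fat. Their called differences were those of Asns, Phgdh and Atf3, to which the matched arrays added Psat1 and Vldlr. S100a8, a neutrophil alarmin, had an effect of 0.70 ± 0.38 in brown fat, which was not called, and rose by 2.24 ± 0.38 in gonadal fat. Its tissue difference of -1.54 ± 0.53 was not called by limma (adjusted p = 0.169) but was with arrays matched by diet and number (adjusted p = 0.021). Over all settings that p lay between 0.021 and 1.

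Other lists held few called differences, against 1.12% positive and 0.911% negative of all genes. An unadjusted p under 0.05 was met by 2275 of all 19327 genes or probes. There were 2 positive and 2 negative among 28 lipid droplet genes (Cidea, Gpat3, Plin2 and Hilpda), 1 positive, Ldhb, among 22 insulin and glucose genes and 1 positive, Npr3, among 12 adrenergic and natriuretic genes. There were 2 negative, Atf3 and Egr2, among 22 immediate early genes. limma called none among 23 fatty acid oxidation genes (5 at an unadjusted p under 0.05), 13 clock genes (0), 18 interferon response genes (2) and 19 endothelial genes (3), where the matched arrays gave 1 call, Vegfb. Among cell markers, limma called 1 of 9 mesothelial (Upk3b, positive, lost in 19 of 24 fits that left out 1 array, with adjusted p up to 0.0945 without gonadal HFD replicate 3), 1 of 10 lymphocyte (Ccr7, negative) and 1 of 5 nerve genes (S100b, positive). It called none of 9 epididymal (0 at an unadjusted p under 0.05), 4 ovarian (0), 7 neutrophil (2), 4 erythroid (2), 7 hepatocyte (0) and 7 pancreatic markers (1). The matched arrays gave 1 neutrophil call, S100a8, and 1 erythroid call, Alas2. Without gonadal SBD replicate 5 limma called 1 hepatocyte marker, negative. The hepatocyte list median was then -0.88, against -0.14 on all arrays, and its gonadal median 0.66, against -0.27. Of the mesothelial markers 4 of 9 fell in gonadal fat (7.77% of all genes), with a median of -0.38, and none had a called change in brown fat. Only 3 of the 9 lay above the median of all probes in both tissues. The mean of the 9 was 6.86 to 6.94 on brown HFD arrays and 6.77 to 7 on brown SBD arrays. How far such dim signals limit a brown diet effect was not tested. Ubd, Psat1, Vldlr, Vegfb and Alas2 were named after their values were seen.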
